A study of Caenorhabditis elegans with 2 samples.

Results

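The genes described here encode subunits of the nucleosome remodelling and deacetylase (NuRD) complex and of the MEC complex of Caenorhabditis elegans. They are 7 genes of 19973 protein-coding genes, chosen by name: let-418, chd-3, mep-1, hda-1, lin-40, egl-27 and dcp-66. The choice was made with earlier results of these data known, so shares set beside all genes are descriptions. The chaperone gene lin-53, which also encodes a NuRD subunit, was left out of the members by the rule and appears only among the related genes. For each gene, every call of tagged LIN-13 was collected whose summit lay in the gene body or within 2 kb of an annotated 5' end of the gene.

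NuRD couples an ATPase of the Mi-2 family, which moves nucleosomes, to a histone deacetylase, and is a general repressor of transcription. In the worm, LET-418 and CHD-3 are Mi-2 ATPases, HDA-1 is the class I deacetylase, LIN-40 and EGL-27 resemble the mammalian MTA subunits, and DCP-66 resembles the p66 subunit. MEC joins LET-418 and HDA-1 to the zinc finger protein MEP-1, and loss of mep-1 or let-418 lets larval somatic cells express germline genes. LIN-13, the protein precipitated here, also has zinc fingers and belongs to class B of the synthetic multivulva genes, many of which likewise keep germline genes off in the soma.

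Chromatin immunoprecipitation with sequencing (ChIP-seq) was done on whole L1 larvae of strain OP49, with males and females pooled. All animals carried the unc119(ed3) mutation and the insertion wgIs49, which brings lin-13 fused to TY1, EGFP and FLAG tags together with a rescuing unc119 copy. There was 1 group with 2 biological replicates, so no test between conditions was possible and no p-value is given. Whole larvae were used, so a call cannot be assigned to a cell type, and an untagged control strain was not analysed here.

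The reproducible set, selected by the authors by irreproducible discovery rate (IDR), held 2333 peaks with signals from 48.2 to 871 and was identical to the 2333 strongest of 30000 calls on the pooled replicates. Signal is the authors' score of a call against the control; its scale is not stated, so calls are placed by rank within a list, where rank 1 is the strongest. The replicate lists also held 30000 calls each, most of them background, with a q-value under 0.05 for 2475 calls in replicate 1 and 5192 in replicate 2. Read depth was not given in the sources used here.

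LIN-13 peaks of the reproducible set lay at 3 of the 7 genes, the MEC gene mep-1 and both MTA-like genes, lin-40 and egl-27. Neither of the Mi-2 genes, nor hda-1 or dcp-66, had one. The 4 peaks were an upstream pair at mep-1, 1 upstream of lin-40 and 1 inside an intron of egl-27. Their sequences are shown because they are where the tagged protein was recovered at these genes: each runs 100 bases to either side of the summit, on the plus strand of ce11, which is the coding strand of all 3 genes, read from the RefSeq copy of the WBcel235 assembly. Capitals mark matches to the words searched for below.
mep-1, near the start, chrIV:11524384-11524584: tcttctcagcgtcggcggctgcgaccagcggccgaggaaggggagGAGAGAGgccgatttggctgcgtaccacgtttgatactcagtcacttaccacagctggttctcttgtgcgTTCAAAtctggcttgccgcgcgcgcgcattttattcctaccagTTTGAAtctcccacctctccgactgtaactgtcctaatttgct
mep-1, upstream, chrIV:11522699-11522899: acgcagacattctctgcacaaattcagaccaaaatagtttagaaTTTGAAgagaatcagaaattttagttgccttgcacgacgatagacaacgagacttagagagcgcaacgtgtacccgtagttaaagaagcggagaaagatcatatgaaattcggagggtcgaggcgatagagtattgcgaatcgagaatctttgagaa
lin-40, upstream, chrV:3703971-3704171: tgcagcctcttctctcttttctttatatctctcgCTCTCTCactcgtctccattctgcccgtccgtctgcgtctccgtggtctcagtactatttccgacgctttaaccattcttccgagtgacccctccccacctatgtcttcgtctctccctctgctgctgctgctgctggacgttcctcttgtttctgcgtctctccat
egl-27, intron, chrII:6839126-6839326: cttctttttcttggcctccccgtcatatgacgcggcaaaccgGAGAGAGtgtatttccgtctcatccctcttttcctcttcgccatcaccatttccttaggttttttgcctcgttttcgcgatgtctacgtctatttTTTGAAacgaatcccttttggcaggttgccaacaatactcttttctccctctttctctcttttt

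The words searched for, on both strands, were the CHR (TTTGAA or TTCGAA), the GC-box (CCGCCC), an E2F-like core (TTCCCGC or TTGGCGC or TTCGCGC) and a GAGA run (GAGAGAG). The GAGA run was present in 3 of the 4 windows, with its centre 52 bp upstream of the summit at mep-1, 63 bp upstream at lin-40, where it reads CTCTCTC, and 55 bp upstream at egl-27. It was found in 21.3% of the 2333 reproducible windows, in 6.33% of all 30000 pooled windows and in 5.17% of promoters, taken as stretches of the same length just upstream of the 19973 genes. The CHR was present in 3 of 4 windows, both at mep-1 and that of egl-27, against 45.2% of reproducible windows, 55.4% of pooled windows and 56.2% of promoters. The GC-box (9.39% of reproducible windows, 4.53% of pooled windows and 5.99% of promoters) and the E2F-like core (15.4%, 5.67% and 4.86%) were in none of the 4. No match of one word overlapped a match of another in these windows. The GC content was 55.2% near the start of mep-1, 41.3% in its upstream window, 53.2% at lin-40 and 44.8% at egl-27, beside medians of 42.8% for reproducible windows and 33.3% for promoters. A matching word is a description of the sequence, and absence says only that these letters are not in the window.

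With the gene body and 2 kb around each 5' end, 3 of 7 genes (42.9%) had a reproducible summit, beside 15.0% of all protein-coding genes. The regions of the members had a median length of 8.06 kb, against 4.18 kb for all genes, and only that of hda-1, at 4.02 kb, was shorter than the latter. Among the 2415 genes whose regions were at least 8.06 kb, 586 (24.3%) held a reproducible summit. The members in that set were chd-3, lin-40, egl-27 and dcp-66, and of these lin-40 and egl-27 held one. The region of mep-1, at 5.31 kb, is shorter, so the 42.9% of the members is not a like count for the 24.3%. Counted by length, the member regions held 4 reproducible summits in 58.26 kb, or 6.87 per 100 kb, beside 2.46 per 100 kb in the regions of all genes. Within 500 bp of a 5' end, mep-1 alone had a reproducible summit, 1 of 7 (14.3%), beside 8.62% of all genes, so with this narrower window the members' share rests on a single gene.

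Relaxing the threshold brought in 1 more gene. Pooled calls with a q-value under 0.05 lay in the regions of 4 of 7 genes, dcp-66 being added, beside 19.9% of all genes. Such calls lay within 500 bp of a 5' end at 3 of 7, mep-1, egl-27 and dcp-66, beside 11.2%. Any pooled call, background included, was present at 7 of 7 regions, beside 71.4% of all genes, and within 500 bp at 6 of 7, beside 39.2%, with hda-1 as the exception. In the replicate lists, calls with a q-value under 0.05 lay at 4 of 7 regions in replicate 1, beside 15.4%, and at 6 of 7 in replicate 2, beside 25.4%. The 4 in replicate 1 were mep-1, lin-40, egl-27 and dcp-66, and replicate 2 added chd-3 and hda-1 but not let-418.

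**Figure D1:**
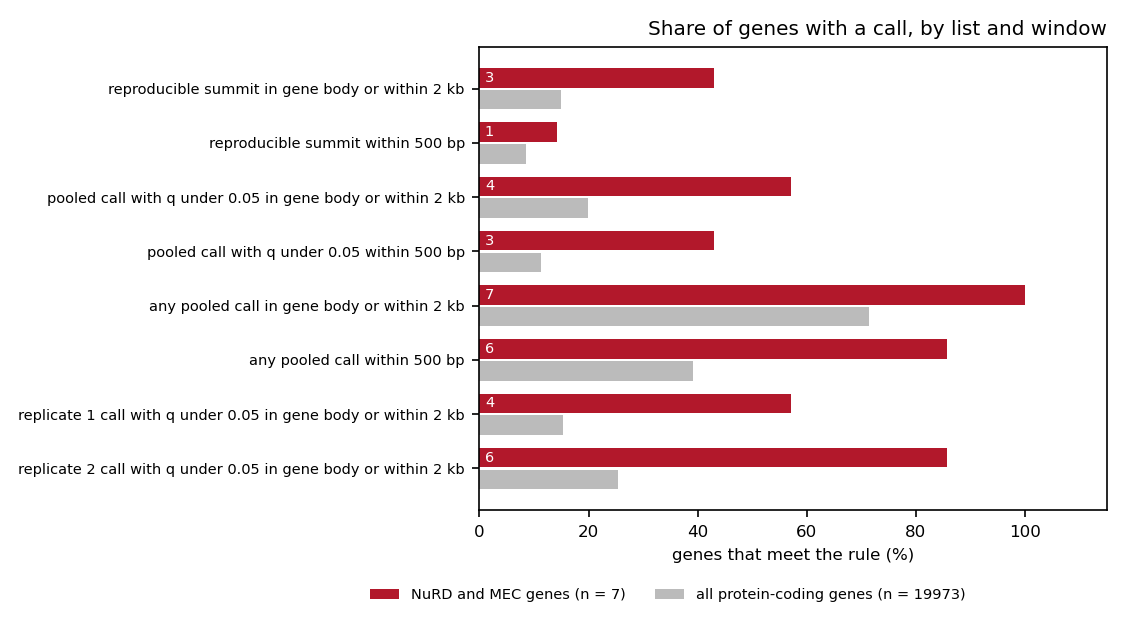
Percentage of the 7 NuRD and MEC genes (red, with the number of genes printed in the bar) and of all 19973 protein-coding genes (grey) that meet each call rule. The members' share is 42.9% against 15.0% for reproducible summits in the wide region, and 14.3% against 8.62% within 500 bp.

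The MEC gene mep-1 carried the strongest single peak among these genes. It lies on IV from 11524642 to 11527954 on the plus strand, with 1 annotated 5' end. The main peak (11524322 to 11524645) had its summit 158 bp upstream of that end, at 11524484, with a pooled signal of 128 and rank 538. In replicate 1 the matching call had a signal of 57.8 and rank 557, and in replicate 2 it had 76.3 and rank 467. Their summits lay 195 and 142 bp upstream of the 5' end, 53 bp apart, and both replicates placed the peak in the promoter. No other protein-coding gene had a 5' end within 500 bp or 2 kb of this summit. It did lie in or within 250 bp of the annotated noncoding RNA genes M04B2.11 and M04B2.13. Their role is not annotated in the sources used.

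The other reproducible peak of mep-1 (11522637 to 11522960) was 1843 bp upstream of the 5' end, with a pooled signal of 67.6 and rank 1475. Its signals were 40.1 in replicate 1 (rank 1070) and 35.0 in replicate 2 (rank 1649). This peak thus ranked higher in replicate 1, while the promoter peak had closer ranks, 557 and 467. The nearest 5' end belonged to gfl-1, a gene of the YEATS family on the same strand, and lay 1509 bp from the summit, which was past the 3' end of gfl-1 and in the interval before mep-1. The peak was also within 2 kb of M04B2.4, so it cannot be assigned to one of the 3 genes. The remaining pooled calls of mep-1 were weaker. They comprised 28.3 at 1074 bp upstream, 19.7 in an exon, and 30.6 in the last part of the gene, 131 bp from the 5' end of M04B2.2.

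Promoter peaks next to that of mep-1 in rank belonged to genes of varied roles. Just above it were the interval of the histone genes his-67 and his-68 (pooled signal 128.4) and unc-40, the netrin receptor gene (128.2). Just below it were the interval of mcm-4, a subunit of the replicative helicase, and Y39G10AR.32 (127.8), and the linker histone gene hil-7 (127.7). The 5 pooled signals were close to each other, while the replicate ranks ran from 497 to 808 in replicate 1 and from 380 to 669 in replicate 2.

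The MTA-like gene lin-40 lies on V from 3704988 to 3712796 on the plus strand and has 3 annotated 5' ends. Its reproducible peak (3703909 to 3704232) had a pooled signal of 101 and rank 805, with the summit at 3704071, 917 bp upstream of the first of them. Both replicate lists put the summit at the same base. The signal was 26.4 with rank 2037 in replicate 1 and 58.5 with rank 771 in replicate 2, so the peak stood much lower in the first list. Of the 100 other reproducible peaks nearest to it in pooled rank, 98 were called in both replicates. Of these 98, 94 ranked above it in replicate 1, where their median rank was 900.5, and 44 did in replicate 2, where it was 815. No other protein-coding 5' end lay within 2 kb.

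Closer to the start of lin-40, the pooled list had a call 406 bp upstream with a signal of 30.9 and rank 4587, outside the reproducible set. It matched a call in replicate 1 with a signal of 24.1 and a q-value under 0.05 (rank 2383), and had no partner within 100 bp in replicate 2. In replicate 1 the 2 upstream calls of lin-40 were thus of similar strength, 26.4 and 24.1, while in replicate 2 the farther one, at 58.5, was well above the nearer, a call of 8.90 at 263 bp upstream. The other 3 pooled calls lay in the gene body, with signals of 19.6, 29.7 and 21.6 and none with a q-value under 0.05.

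Within its region, the MTA-like gene egl-27 was covered by many weak calls rather than by 1 strong peak. A stronger reproducible peak, with its summit at 6827691, had its nearest 5' end at egl-27 but lay farther upstream, outside the region. It had a pooled signal of 85.05 and rank 1054, with ranks of 1059 and 1308 in replicates 1 and 2, and was not counted. The gene egl-27 is the longest of the members (II, 6835008 to 6847908, plus strand, 14 annotated 5' ends), and 2.93% of all genes had a longer region. Its region held 14 pooled calls, 12 of them in introns, or 0.940 per kb against a median of 0.250 per kb over all genes. Only 3.64% of genes had a higher density, and mep-1, with 0.941 per kb from 5 calls, was as high. The single reproducible peak of the region (6839064 to 6839387) had its summit in an intron, 4218 bp inside the gene and 960 bp upstream of the next internal 5' end, at 6840186.

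That egl-27 peak was near the lower edge of the reproducible set, with a pooled signal of 52.2 and rank 2110 of 2333. Its replicates differed: the signal was 35.7 with rank 1605 in replicate 2, and 16.7 with rank 5487 and a q-value above 0.05 in replicate 1. Replicate 1 had its strongest call of the region elsewhere, with a signal of 23.7 and rank 2463, at a summit 59 bp from the pooled call of 37.5. A further pair of pooled calls, of 47.1 and 46.9, fell just short of the lowest reproducible signal of 48.2. The first of these lay 358 bp past an internal 5' end and the other 1108 bp upstream of the gene, beside annotated noncoding RNA genes. In all, 4 of the 14 pooled calls had a q-value under 0.05, with 1 such call in replicate 1 and 10 in replicate 2.

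**Figure D2:**
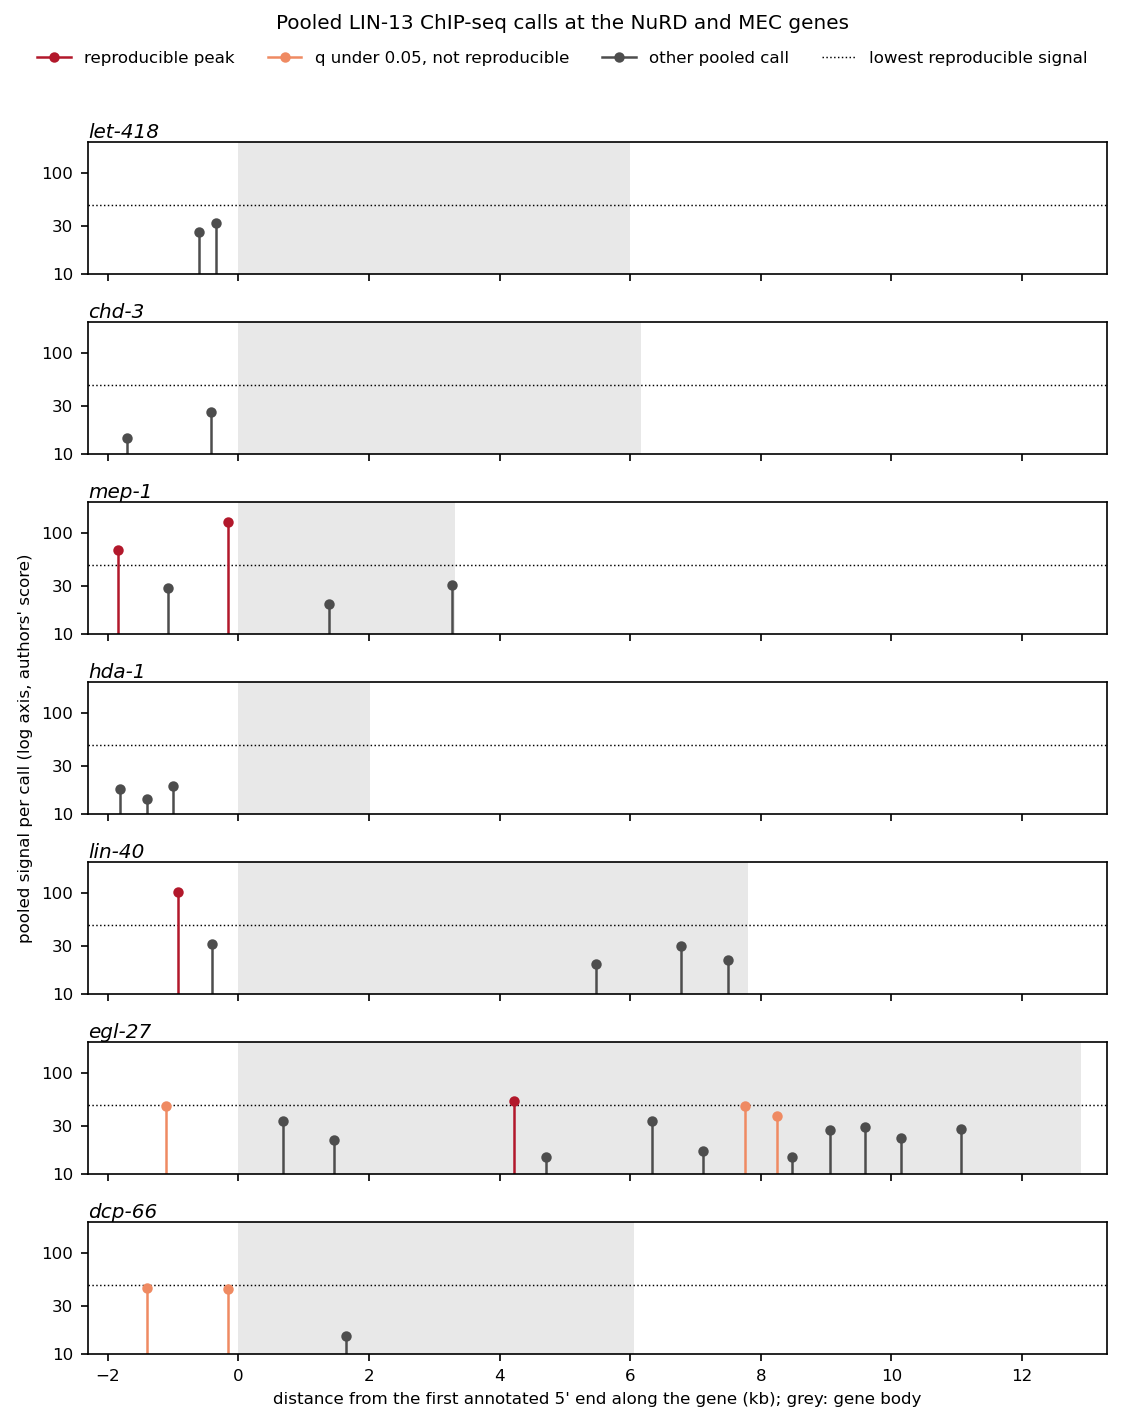
Pooled calls at each gene, with the distance from the first annotated 5' end along the gene in kb (grey marks the gene body) and the signal on a log axis. The 4 reproducible peaks (dark red) at mep-1, lin-40 and egl-27 stand above the dotted line at 48.2, and egl-27 has 14 calls, most of them in its body.

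The p66-like gene dcp-66 was the nearest to the threshold among the genes without a reproducible peak. It lies on I from 7536104 to 7542159 on the minus strand. Of its 3 pooled calls, 2 had a q-value under 0.05. They lay 164 bp upstream of the 5' end, with a signal of 44.1 and rank 2627, and 1403 bp upstream, with 45.2 and rank 2540. The third lay in an exon, with 14.9 and rank 25278. In each replicate taken alone, its strongest call was within the 2333 highest. In replicate 1 that call had a signal of 32.7 and rank 1465 and lay 438 bp upstream of the 5' end, and in replicate 2 it had 43.4 and rank 1200 and lay 163 bp upstream. Both were promoter calls, but their summits were 275 bp apart, and replicate 1 had no call within 100 bp of the pooled promoter summit. The farther call had signals of 12.1 in replicate 1 (rank 13777) and 36.4 in replicate 2 (rank 1554). No other protein-coding 5' end lay within 2 kb of either of the upstream pooled summits.

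The Mi-2 ATPase genes had only weak calls. Both had a pooled call within 500 bp of the 5' end, as did 39.2% of all genes, background included. At let-418 (V, 5826833 to 5832831, plus strand) the strongest pooled call was 343 bp upstream with a signal of 31.6 and rank 4390. It was matched in both replicates, with 13.1 (rank 11156) in replicate 1 and 15.2 (rank 5423) in replicate 2, and none of these had a q-value under 0.05. A weaker call of 26.1 lay 604 bp upstream and was matched in replicate 1 alone.

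At chd-3 (X, 12846439 to 12852601, minus strand) the strongest pooled call was 423 bp upstream with a signal of 25.9 and rank 6473. Replicate 1 had a call of 9.61 there, at rank 24571 among its background. Replicate 2 had a stronger call of 19.9 at rank 3518, with a q-value under 0.05, but its summit was 310 bp upstream of the 5' end and so outside the 100 bp used for matching. Each Mi-2 gene thus had a pooled call within 500 bp that fell short of the threshold, and the replicates were closer to each other at let-418 than at chd-3.

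The deacetylase gene hda-1 had the weakest calls in the pooled list, but not in either replicate. It lies on V from 14525389 to 14527411 on the plus strand, and no pooled call was within 500 bp of its 5' end or inside the gene. The strongest of 3 upstream calls was 991 bp away with a signal of 19.0 and rank 14218, and 47.4% of all genes had a call at least as strong in their region. It lay 269 bp from the 5' end of ril-1, and the other 2 were also nearer to neighbours, ril-1 and C53A5.2, than to hda-1. Replicate 2 had a call of 24.3 at 993 bp upstream, with rank 2684 and a q-value under 0.05, and replicate 1 had none within 100 bp of it. The strongest call of hda-1 in replicate 1, 1736 bp upstream, had a signal of 10.95 and rank 18050.

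Ordered by the strongest pooled call, the genes ran mep-1 (128), lin-40 (101), egl-27 (52.2), dcp-66 (45.2), let-418 (31.6), chd-3 (25.9) and hda-1 (19.0). A call as strong as that of mep-1 was present in the regions of 4.37% of all genes, and for lin-40, egl-27 and dcp-66 the shares were 6.32%, 13.9% and 15.9%. For let-418 and chd-3 they were 22.9% and 29.2%. These shares do not take region length into account, and most members had regions longer than the median of all genes. The replicates each put mep-1 first, but the order below it changed. Replicate 1 put dcp-66 (rank 1465) above lin-40 (2037) and egl-27 (2463), while replicate 2 put lin-40 (771) above dcp-66 (1200) and egl-27 (1605). With 2 replicates, the order of these 3 genes is not settled. In both lists let-418, chd-3 and hda-1 ranked below these 4 genes, in differing order. Replicate 1 had let-418 (rank 7842), then hda-1 (18050) and chd-3 (24571), and replicate 2 had hda-1 (2684), then chd-3 (3518) and let-418 (5423).

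**Figure D3:**
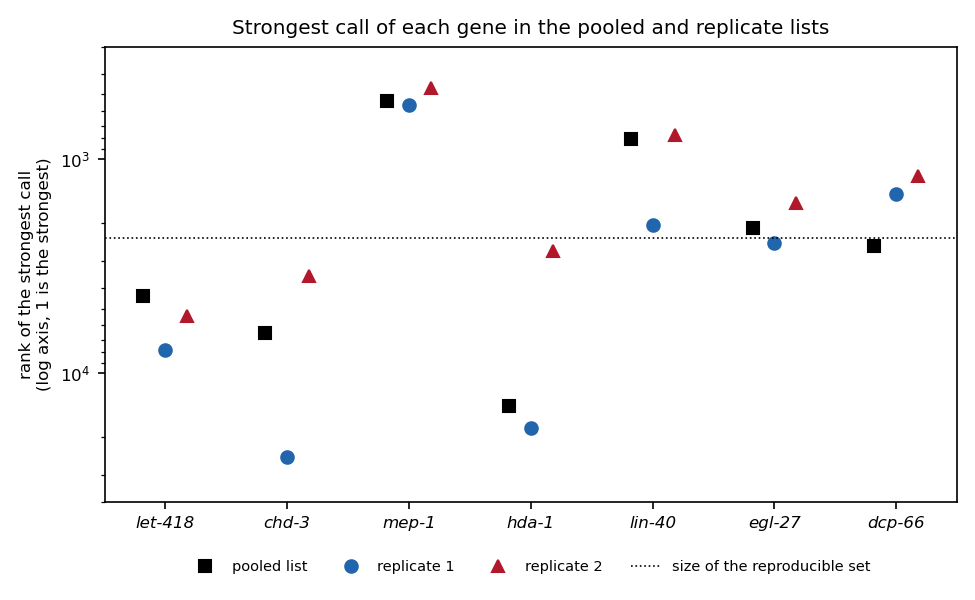
Rank of the strongest call of each gene in the pooled list (squares), replicate 1 (circles) and replicate 2 (triangles), on a log axis with the strongest at the top; the dotted line marks the size of the reproducible set, 2333. The position of the strongest call can differ between lists. mep-1 is highest in all 3, and the replicates are far apart at chd-3 and hda-1.

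The replicates gave partners within 100 bp in both lists for 12 of the 34 pooled calls in the 7 regions. The share of all pooled calls with such partners was not counted, so 12 of 34 cannot be called high or low. A q-value under 0.05 was given to 9 of the 34, beside 3468 of all 30000 pooled calls. All 4 reproducible peaks were matched in both, as were 2185 of the 2333 peaks of the whole reproducible set. Within both lists the mep-1 promoter peak had a like rank, and those of lin-40 and egl-27 stood higher in replicate 2.

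**Figure D4:**
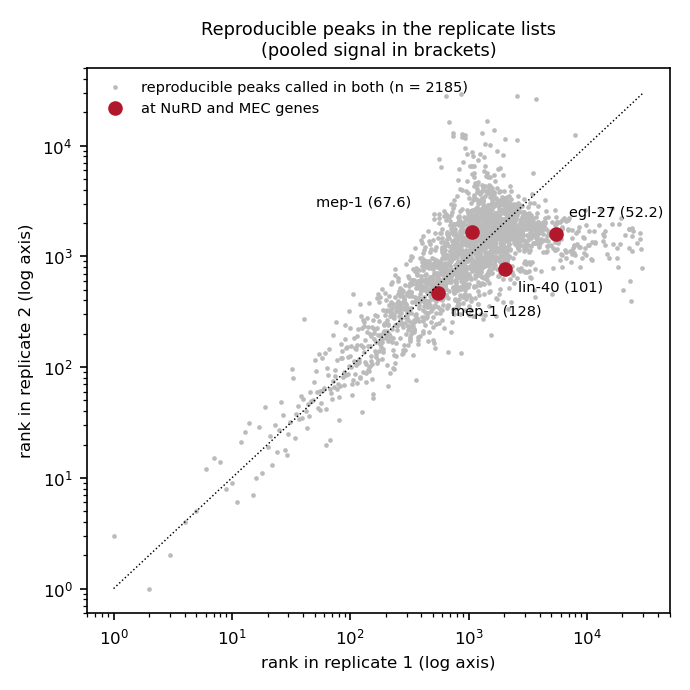
Rank in replicate 1 against rank in replicate 2, on log axes, for the 2185 reproducible peaks called within 100 bp in both lists (grey), with the 4 peaks at NuRD and MEC genes in red and their pooled signal in brackets. The dotted line marks equal ranks; lin-40 and egl-27 lie below it, with a better rank in replicate 2.

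Genes outside the 7 were counted in the same way, most of them in other complexes. Of 33 genes listed as partners of these complexes, other histone deacetylases or other remodelling factors, 32 matched the annotation (swsn-8 did not), and 9 (28.1%) had a reproducible summit within 500 bp of a 5' end, beside 8.62% of all genes. With the gene body and 2 kb around each 5' end, 14 (43.8%) had one, close to the 42.9% of the members and beside 15.0% of all genes. The region lengths of these related genes were not taken into account. The partners with a reproducible summit within 500 bp, among the 10 listed, were lin-53 (203), ubc-9 (185) and mog-4 (111). Of these, ubc-9 is the SUMO-conjugating enzyme gene and mog-4 encodes an RNA helicase of the DEAH family. The lin-53 summit was 257 bp upstream of that gene but nearer to nra-2, 210 bp from its 5' end, so it cannot be assigned to one of these 2 genes. Its signals were 97.3 in replicate 1 and 100.4 in replicate 2, above those of the mep-1 promoter peak in both.

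Among the 11 other deacetylase genes, sir-2.2 (133), hda-6 (72.4) and hda-11 (66.4) had a reproducible summit. The hda-6 summit was shared with F41H10.4 and the hda-11 summit with C35A5.8, whose 5' end was the nearer, at 135 bp. Among the 11 other remodelling factors these were nurf-1 (144), a subunit gene of the NURF complex with 3 such summits, swsn-1 (58.1), of the SWI/SNF complex, and btf-1 (51.9). The other 23 matched genes had no reproducible summit within 500 bp, but 5 of them had one in the wide region: rba-1, the germline gene pie-1, the SUMO gene smo-1, chd-7 and pbrm-1. The lists were fixed with results of these data known, and their counts are descriptions.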

How the data were processed

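Peak lists of 2 replicates of 1 group were analysed in the ce11 build, the WBcel235 assembly. Per the deposited descriptions, each replicate's calls, and those of the pooled alignments, were made against a control alignment and kept background, and the IDR set was derived from them. The signal per call and the −log10 q-value are the authors' values as deposited; the sources used here name no peak caller, aligner, version, IDR threshold or depth. The lists in ce10 were not used here. Summits were placed against 29304 distinct 5' ends of protein-coding transcripts (Ensembl release 115) with Python 3.11.15 and pandas 2.3.3. Windows were 2 kb and 500 bp; replicate calls were matched within 100 bp. A summit could count for several genes. The counting code was tested on simulated data. The members and related genes were chosen with earlier results of these data known. Named genes were all members, genes sharing or nearest to their reproducible summits, related genes with a summit, and the promoter peaks adjacent in rank to the strongest peak. Genes such as ril-1 and C53A5.2, others near weaker calls, and related genes with a summit in the wide region alone, were named after their values were seen. Alternatives were other peak thresholds, single replicates, windows, 5'-most ends, nearest ends, interval overlap and the RefSeq annotation.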

Additional observations from a re-analysis of the deposited data

How the results depend on the processing

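The count of 3 genes with a reproducible summit in the wide region was 2 to 4 under the 9 alternatives tried. It was 2 with the stronger part of the reproducible set (every peak above its median rank), which drops egl-27, and 4 with pooled calls of q-value under 0.05, which add dcp-66. With as many top calls from a single replicate it was 3 without replicate 2 (dcp-66 in place of egl-27) and 4 without replicate 1. The count within 500 bp, 1, rose to 3 with pooled calls of q-value under 0.05 and to 3 at 1000 bp, and was 2 without either replicate. The 4 summits became 2 with the stronger peaks, 9 with pooled calls of q-value under 0.05, and 4 to 7 without 1 replicate. The 9 related genes became 5 with the stronger peaks and 7 with the nearest 5' end alone, which leaves out lin-53 and hda-11. Of 36 alternative counts, 28 stayed within 1.5 times the main count. For a main count of 3 this limit passes every value from 2 to 4, also where the genes differ, so the tally is a weak check. The offset of the strongest call kept its sign in all 12 comparisons with a matched replicate call. Matching within 100 bp left no room for a change of sign at these offsets, so this outcome is no check. No paired analysis was possible because there was 1 group. Unknown depth limits what the weak calls of let-418, chd-3 and hda-1 can show.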
